A study of Oncorhynchus mykiss with 38 samples.

Results

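The 99 clones described here had a higher mean signal in rainbow trout testes at stage IIIb than in immature testes. Stage IIIb is when meiotic spermatocytes have accumulated. The clones stayed near their stage IIIb mean at stage V, when post-meiotic spermatids are also present. They were taken from the 9024 cDNA clones with values on a nylon array, of which they made up 1.1%. A clone was included when its mean log2 signal at stage IIIb exceeded that at stage IIb and that at stage I by 0.8 or more, when its stage V mean lay within 0.5 of its stage IIIb mean, and when its stage IIIb mean was 8.17 or more, the median signal of an array, which the study takes as background. Clones of sycp3, cetn4, ift122 and ddx4 were to be left out by name, and none of the 5 clones concerned met the thresholds. Only 4 of the 99 clones carried a gene symbol in the array description, namely edf1, hmgb1a, fih1 and LOC100136690. The other 95 are given by their clone names, without a gene or a role.

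All samples came from male rainbow trout (Oncorhynchus mykiss), with 1 array for each of 38 samples. Whole testes were at stage I (n = 5), with slowly dividing type A spermatogonia only, at stage IIa (n = 4) and IIb (n = 4), with few and then more dividing type B spermatogonia, at stage IIIb (n = 3) and stage V (n = 4), as described above, and at stage VIII (n = 3), spawning testes that hold mostly spermatozoa. Isolated germ cells were fractions enriched in spermatogonia (n = 6), spermatocytes (n = 6) and spermatids (n = 3), made by collagenase digestion and centrifugal elutriation of pooled testes. Immature testes gave the spermatogonia, which still held some Sertoli cells, and maturing testes gave the later cells, so that the fractions differ in source as well as in cell type. No genetic alteration or treatment of the fish is given.

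Spermatogenesis in trout is seasonal, and germ cells divide and differentiate in cysts formed by Sertoli cells. Spermatogonia multiply by mitosis, spermatocytes pass through meiosis, and spermatids are remodelled into spermatozoa, whose condensed nuclei are largely silent in transcription. As the season advances the testis therefore holds a changing mixture of germ cells and somatic cells. In RNA from whole testis, fewer cells of a type and less RNA per cell cannot be told apart.

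Values are log2 signals, so a difference of 1 is a doubling of signal. The deposited arrays shared the same distribution, with a median of 8.17, and a difference is relative to the other clones on the array. Differences among stages I, IIb, IIIb and V follow from the selection and are given without a test. Tests were confined to stage IIa, stage VIII and the 3 fractions, which the selection did not use, with a limma fit over all clones and p-values adjusted by Benjamini-Hochberg. Stage IIa resembled stages I and IIb, so a test with stage IIa is not fully independent of the selection. The labels do not say whether samples of a group came from separate fish or preparations, and a p-value here weighs a difference only against the spread among the samples at hand, which may be technical. That spread was pooled over the 9 groups for each clone. A clone whose spermatid arrays differ widely is thus tested against a smaller spread. For fih1 the SD was 1.88 in spermatids and 0.20 in spermatogonia. Markers measured on the same arrays followed the labels in part. The signal of sycp3, a protein of the synaptonemal complex formed in meiosis, averaged 8.70 in stage IIa, 9.74 in spermatogonia and 10.46 in spermatocytes, but was higher still in spermatids, at 11.13. That of clu, a Sertoli cell gene, was 11.09, 8.08 and 7.63 in the first 3 of these groups and 8.52 in spermatids. The haemoglobin genes hba1 and hba4 were well above the background in the spermatogonia fraction, at 10.61 and 11.05. Another red cell gene, cahz, was under the background there, at 7.81. Some arrays stood apart from their group over the 99 clones. The median over the clones was 8.96 on spermatid replicate 2, against 9.69 and 9.41 on the other spermatid arrays, and 8.51 on stage VIII replicate 1, against 8.18 and 7.98. Values of 6 clones were missing, on 1 or more of 3 arrays (replicate 1 of stage V, replicate 5 of the spermatocytes and replicate 3 of the spermatids), and their means rest on the remaining arrays.

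Across the testis stages the clones were low, then high, then low again. Their median signal was 8.32 at stage I, 8.24 at stage IIa and 8.44 at stage IIb. It was 9.53 at stage IIIb, 9.77 at stage V and 8.19 at stage VIII. The first 3 stages and stage VIII thus lay near the background, and stages IIIb and V more than 1 log2 unit above it. The number of clones with a mean at or above 8.17 was 54 at stage I, 51 at stage IIa, 67 at stage IIb, 97 at stage V and 51 at stage VIII, while all 99 were above it at stage IIIb by selection. The median over all clones lay between 8.14 and 8.17 in every stage and fraction, so about as many of all clones lie above this limit as below it. The counts at stages I, IIa and VIII were near that share. No array of stages IIIb and V had a median over the clones under 9.44, and none of stages I, IIa and IIb had one over 8.78.

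**Figure D1:**
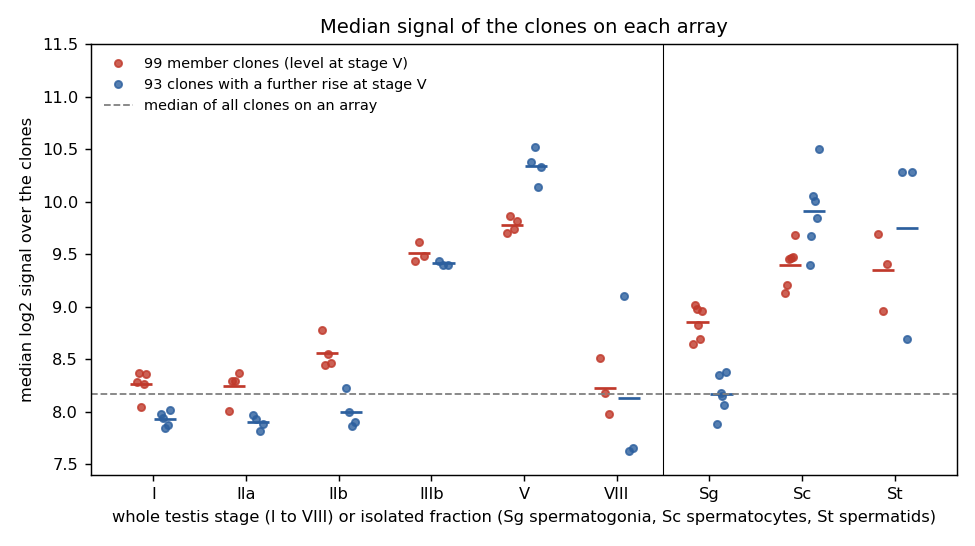
Median log2 signal over the 99 clones (red) and over 93 clones that also rose by the same thresholds but were a further 0.5 or more higher at stage V (blue), with 1 point for each array, bars for the mean of a group and a dashed line at the median of all clones. The red points of stages IIIb and V lie between 9.44 and 9.86, above every array of stages I, IIa, IIb and VIII, and the stage VIII arrays spread from 7.98 to 8.51.

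The step from stage IIb to stage IIIb had a median of 1.03 and ran from 0.80 to 1.77, and that from stage I ran from 0.80 to 2.43 with a median of 1.31. Against stage IIa, which the selection did not use but which resembled stages I and IIb, the median difference was 1.30. In 92 of the 99 clones every stage IIIb array lay above every stage IIb array, a pattern found in 11.8% of all clones, and in 78 all 7 arrays of stages IIIb and V lay above all 13 arrays from stages I to IIb, against 5.19%. These counts describe what was selected. A small part of the step was already present at stage IIb, where 82 of the 99 clones had a higher mean than at stage I, with a median difference of 0.24, against -0.01 for all clones.

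Level is an approximate word for stage V. The stage V mean was the higher one in 72 clones and the lower one in 27, with a median difference of 0.21, and stage V held the highest mean of all 9 groups for 63 clones, against 25 for stage IIIb. The limits of the selection cut through a continuous range. At the limit of 0.8 over stage IIb, tcbk0006.a.12 and tcbi0012.h.24 lay just inside (both 0.80) and tcab0003.l.06 (0.798) and tcbk0045.j.21 (0.795) just outside, and 144 clones missed the selection by this limit alone. At the limit of 0.8 over stage I, tcaa0001.p.15 (0.803) and tcay0034.h.24 (0.813) lay inside and 1rt160g06_c_d03 (0.795) and tcbk0038.l.12 (0.791) outside, with 16 clones missing by this alone. At the limit of 0.5 between stages V and IIIb, tcbk0036.n.18 (0.49998) and 1rt40g06_c_d03 (0.498) lay inside and tcad0007.p.08 (0.504) and tcay0005.g.19 (0.508) outside, with 94 clones missing by this alone. At the background, tcbk0056.k.20 (8.21) and tcbk0002.h.17 (8.25) lay inside and tcbk0061.n.13 (7.99) was the single clone missing by this alone.

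The 3 brightest clones without a symbol showed the pattern on nearly every array. The signal of tcaa0001.f.03 was between 11.17 and 11.22 on the 5 stage I arrays, 11.10, 11.25, 11.42 and 11.44 at stage IIa, and 12.01, 11.58, 11.65 and 11.66 at stage IIb. It was 12.90, 12.67 and 12.23 at stage IIIb, 13.01, 13.03, 12.75 and 12.87 at stage V, and 11.78, 11.08 and 10.65 at stage VIII. Stages IIIb and V therefore did not overlap with any earlier stage. The 3 stage IIIb arrays were at 12.45, 12.63 and 12.54 for tcbk0045.p.24 (SD 0.092) and at 12.13, 12.02 and 12.04 for 1rt151c22_c_b11 (SD 0.059), closer together than those of tcaa0001.f.03 (SD 0.34). The signals at stage VIII were 11.04, 10.28 and 10.31 for tcbk0045.p.24 and 10.73, 9.91 and 9.91 for 1rt151c22_c_b11, with replicate 1 the highest in both, as in tcaa0001.f.03.

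Among the groups that the selection did not use, 87 of the 99 clones varied by a moderated F-test over stage IIa, stage VIII and the 3 fractions (limma, adjusted p of at most 0.005), against a background of 41.5% of all clones. In the isolated cells the median signal over the 99 clones came to 8.81 for spermatogonia, 9.46 for spermatocytes and 9.43 for spermatids, and the number of clones at or above the background 78, 89 and 90. The medians of all 3 fractions were therefore above those of the immature testes, and those of the later fractions were close to that of stage IIIb.

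Nearly as many clones were higher in spermatocytes than in spermatogonia as did not pass the test. In the test of spermatocytes (n = 6) against spermatogonia (n = 6), 46 of the 99 clones were higher in spermatocytes and 4 lower, against backgrounds of 12% and 14.9% of all clones, and 49 did not pass (limma, adjusted p under 0.05). The median difference over the 99 clones was 0.45, and 0.01 over all clones. In 24 clones all 6 spermatocyte arrays lay above all 6 spermatogonia arrays, against 4.2% of all clones. Of the 4 clones with a symbol, edf1, hmgb1a and LOC100136690 were among the 46, and fih1 among the 49. The 46 clones had lower medians than the other 49 at stage I (8.09 and 8.57) and at stage IIIb (9.38 and 9.997), and 38 of the 46 had their highest mean at stage V, against 25 of the 49. Red cell genes also differed between these fractions, with 4 of 4 measured (cahz, hba1, hba4 and hbb1) lower in spermatocytes. Their summed signal ranged from 11.58 to 13.81 over the spermatogonia arrays and from 9.51 to 11.97 over the spermatocyte arrays. Of 5 measured genes listed for Sertoli cells (clu, dmrt1, sox9, tf and tfa) 3 were lower, with summed signals of 10.36 to 10.92 and 9.83 to 10.30. The paper counts Tf among the genes of its type A spermatogonia cluster, so this list may not stand for Sertoli cells alone. The part of red cells and Sertoli cells in the difference was not tested.

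**Figure D2:**
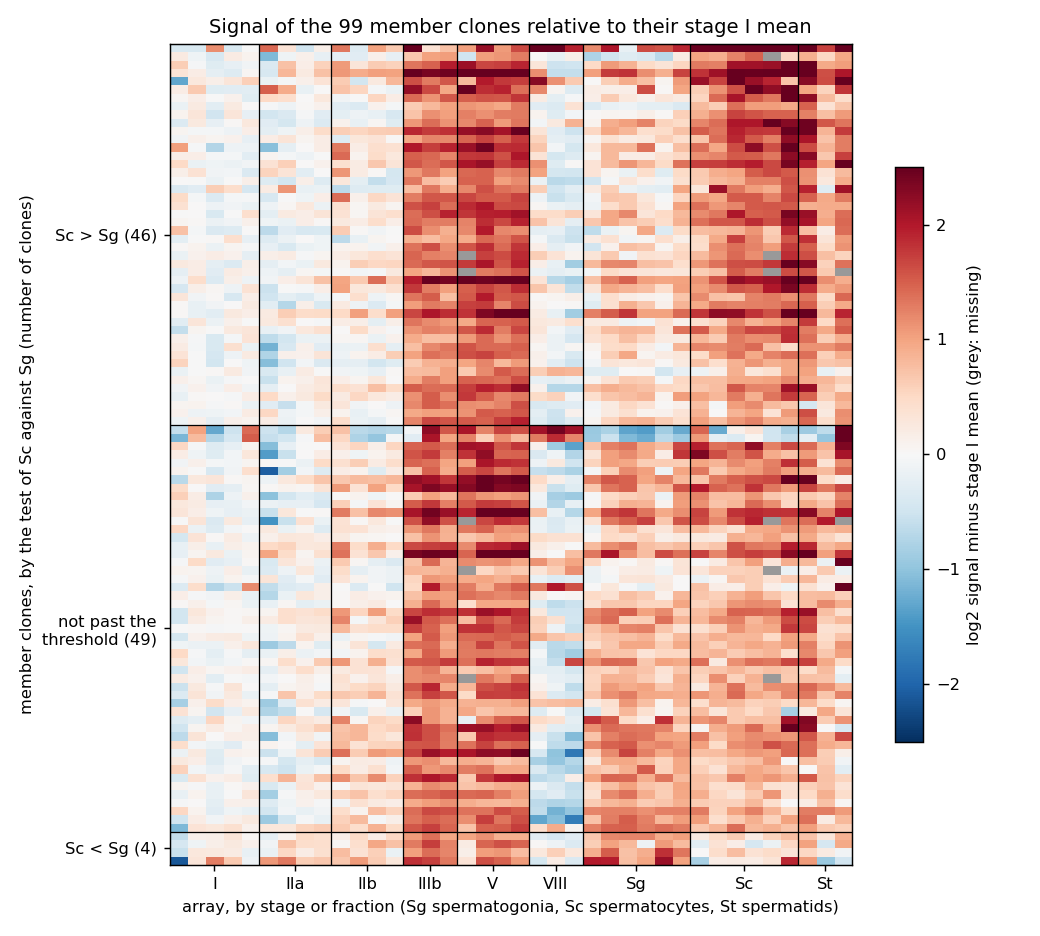
Log2 signal of the 99 clones (rows) on the 38 arrays (columns, by stage or fraction) minus the stage I mean of each clone, in red for higher, blue for lower and grey for missing. Rows are grouped by the test of spermatocytes against spermatogonia (46 higher, 49 not past the threshold, 4 lower) and ordered by that difference within groups, and the columns of stages IIIb and V are red almost throughout.

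**Figure D3:**
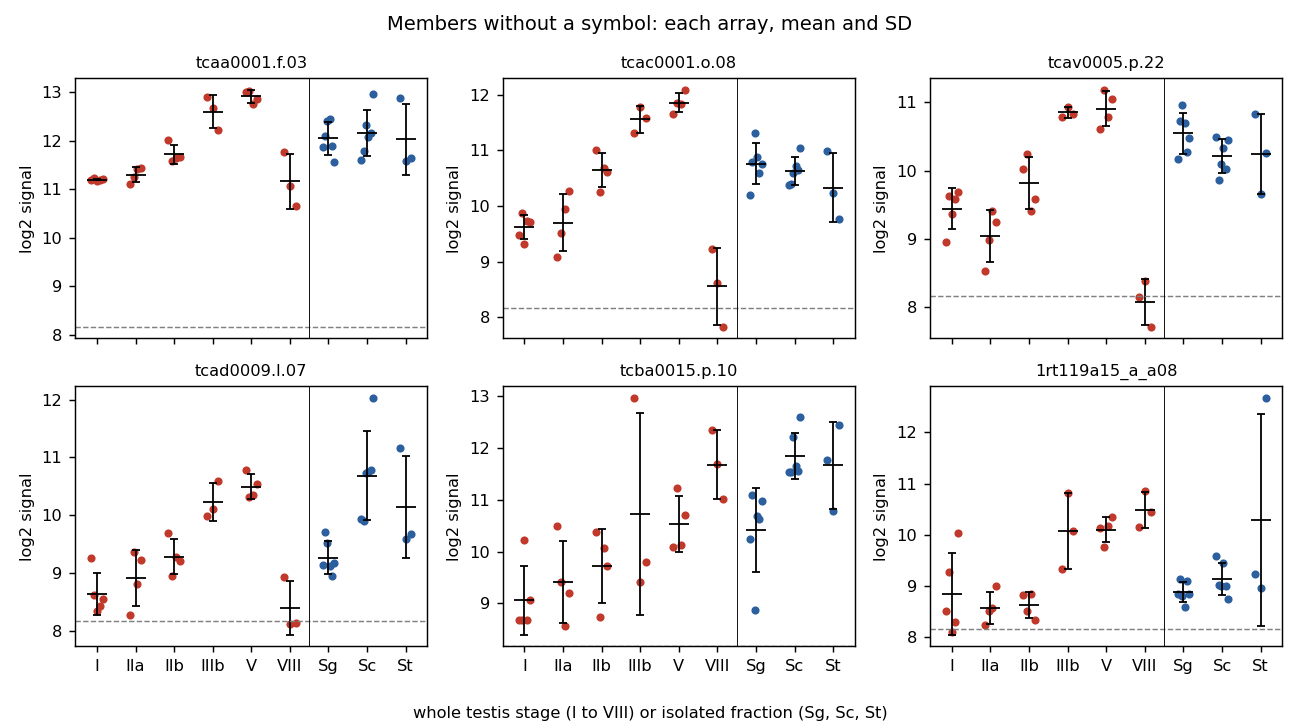
Log2 signal of 6 clones without a symbol on every array (red for whole testis, blue for fractions), with the mean and SD of each group in black and the median of all clones as a dashed line. In tcac0001.o.08 and tcav0005.p.22 the stage VIII mean is the lowest of all groups, in tcba0015.p.10 and 1rt119a15_a_a08 it is above that of stage V, and stage IIIb replicate 1 of tcba0015.p.10 (12.96) and spermatid replicate 3 of 1rt119a15_a_a08 (12.67) stand alone.

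The largest differences in favour of spermatocytes among clones without a symbol were those of tcba0015.p.10, tcad0009.l.07 and tcay0013.g.06. The signal of tcad0009.l.07 lay between 8.96 and 9.71, with a median of 9.15, in the 6 spermatogonia arrays and between 9.89 and 12.02, with a median of 10.74, in the 6 spermatocyte arrays. The ranges did not overlap, and the clone rose by 1.42 (SE 0.27, adjusted p = 1.1e-04, limma). For tcay0013.g.06 the ranges were 9.45 to 10.51 and 10.15 to 12.68, overlapping through the lowest spermatocyte array, with a difference of 1.40 (SE 0.32, adjusted p = 9.3e-04, limma). For tcba0015.p.10 they were 8.88 to 11.09 and 11.53 to 12.59, with no overlap, and the difference was 1.44 (SE 0.44, adjusted p = 0.0125, limma). That last call rests on spermatogonia replicate 3, the array at 8.88, without which the difference was 1.13 with an adjusted p of 0.0545. The adjusted p of this result ran from 0.00545 to 0.0737 over all its alternatives.

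The 4 clones that were lower in spermatocytes were tcbk0024.h.21, tcbk0056.k.20, tcad0008.o.20 and tcbk0006.a.12. For tcbk0056.k.20 the 6 spermatogonia arrays ranged from 7.73 to 8.82 and the 6 spermatocyte arrays from 7.01 to 7.77, with a narrow overlap, and the signal fell by 0.81 (SE 0.19, adjusted p = 0.00148, limma). All spermatocyte signals of this clone were under the background, and when dim signals were set to the array median the difference was -0.20. For tcbk0024.h.21, a brighter clone, the ranges were 10.85 to 12.27 and 9.30 to 11.98, and the signal fell by 1.14 (SE 0.39, adjusted p = 0.0282). One spermatocyte array, at 11.98, lay within the range of the spermatogonia, and the call was lost in 4 of 12 fits that each left out an array. For tcad0008.o.20 the ranges were 7.4 to 8.57 and 7.09 to 8.04, the difference was -0.66 (SE 0.23, adjusted p = 0.0345), and the call was lost in 7 of 12 such fits. All its spermatocyte signals were likewise under the background, and with dim signals set to the array median the difference was -0.18, no longer past the threshold. The difference of tcbk0006.a.12 was -0.57 (SE 0.14, adjusted p = 0.00240). Its spermatocyte arrays ranged from 7.88 to 8.44, around the background, and the alternatives were not examined for this clone. None of the 4 clones had its highest mean at stage V.

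**Figure D4:**
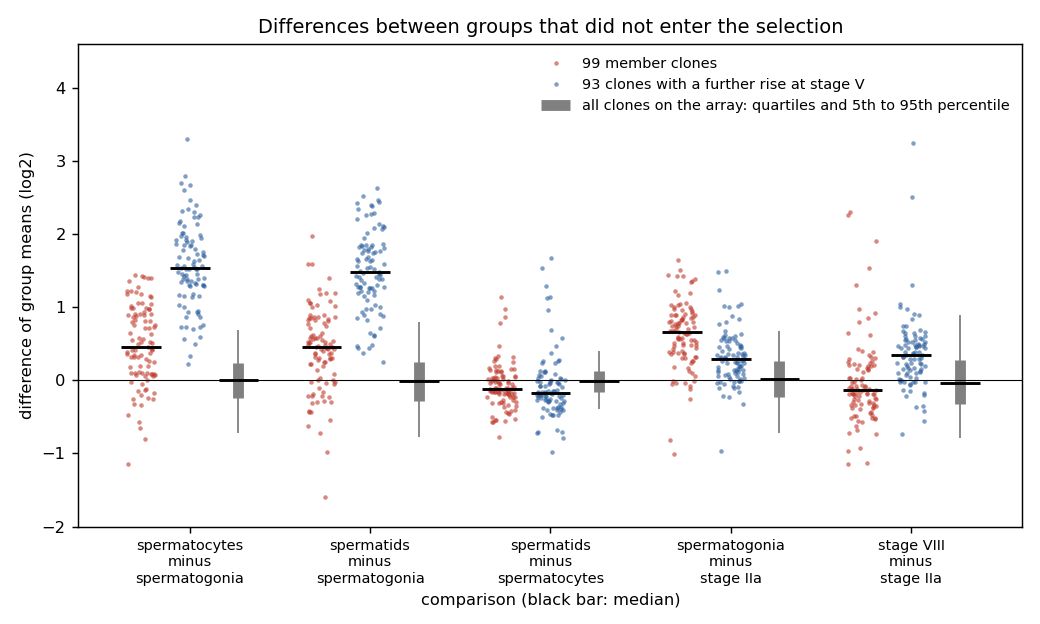
Differences of group means (log2) in the 5 comparisons between groups that the selection did not use, with a point for each of the 99 clones (red) and each of the 93 clones with a further rise at stage V (blue), and the quartiles and 5th to 95th percentile of all 9024 clones in grey. Black bars mark medians, which for the 99 clones are 0.45, 0.45, -0.11, 0.66 and -0.13 from left to right.

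Spermatids (n = 3) were compared with both other fractions. Against spermatogonia, 33 clones were higher in spermatids and 4 lower, with backgrounds of 9.74% and 11.6%, and the median difference was 0.45. This count depended on single arrays. In both directions together it was 37 with all arrays, against 21.3% of all clones, and 51 without spermatid replicate 2, against 31.5%. It was 20 without replicate 1, against 16.6%, and 17 without replicate 3, against 7.52%. Between these fractions 3 of 4 red cell genes were lower in spermatids, with summed signals of 9.53 to 10.62 over the spermatid arrays and 11.58 to 13.81 over the spermatogonia arrays. Of the other lists, 2 of 6 Leydig cell genes (10.63 to 10.91 and 10.92 to 11.76) and 1 of 3 matrix genes (10.37 to 13.10 and 11.75 to 12.91) were lower, and 1 of 5 Sertoli cell genes was lower and 1 higher. Their part in the count was not tested. Against spermatocytes, 0 of the 99 clones passed in either direction, with backgrounds of 0.0665% and 0%, and at an unadjusted p under 0.05 there were 2 higher and 5 lower (limma), against 4.92% and 3.66% of all clones. The median difference between spermatids and spermatocytes was -0.11, and 0.08 without spermatid replicate 2. The spermatid arrays differed from one another in these clones, and a gap of more than 2 log2 units between 1 array and every other array of its group was found in 8 clones, 7 of them in spermatids. Replicate 3 was the high array in 4 of these, fih1, 1rt119a15_a_a08, 1rt95j18_d_e09 and tcba0019.l.15. The share of all clones with such a gap was not counted, so these gaps may not be particular to the 99 clones.

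Spermatogonia (n = 6) exceeded stage IIa testes (n = 4), which hold mainly spermatogonia and somatic cells, in most of the clones. Stage IIa did not enter the selection but resembled stages I and IIb, which did, so its low level here may partly follow from the selection. Of the 99 clones 60 were higher in spermatogonia and 0 lower, against backgrounds of 12% and 10.3% of all clones, and 39 did not pass (limma, adjusted p under 0.05). At an unadjusted p under 0.05 the counts were 70 and 0, against 18.4% and 15.8% of all clones. The median difference was 0.66, against 0.02 over all clones, and in 42 clones every spermatogonia array lay above every stage IIa array, against 9.33%. Without stage IIa replicate 1, the array with the lowest median over the clones in that stage (8.0, the others 8.29 to 8.37), 38 clones were higher and 0 lower, against backgrounds of 6.7% and 8%. Most genes of the somatic cell lists were lower in the fraction than in the tissue. They were 5 of 6 measured genes of Leydig cells, 3 of 3 of the extracellular matrix and 3 of 5 of the Sertoli cell list. In that last list 1 gene was higher. The summed signal of the Leydig cell genes was 10.92 to 11.76 over the spermatogonia arrays and 12.28 to 12.57 over the stage IIa arrays, and that of the matrix genes 11.75 to 12.91 and 13.91 to 14.13. Of 4 red cell genes only 1 was lower, with summed signals of 11.58 to 13.81 and 12.85 to 14.01, which overlapped. Of 3 germ line genes 1 was higher and 1 lower. The part of these genes in the difference was not tested.

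The largest differences of named clones in this comparison were those of tcav0005.p.22 and tcac0001.o.08. The signal of tcav0005.p.22 was 8.54, 8.98, 9.41 and 9.25 at stage IIa and between 10.16 and 10.96, with a median of 10.59, in the spermatogonia. The groups were well apart, and the clone was higher in spermatogonia by 1.51 (SE 0.20, adjusted p = 7.2e-07, limma). For tcac0001.o.08 the signals were 9.08, 9.51, 9.95 and 10.26 at stage IIa and 10.19 to 11.31, with a median of 10.78, in spermatogonia, overlapping by 1 array on each side, and the difference was 1.06 (SE 0.23, adjusted p = 9.3e-04, limma). Among the brightest clones, tcaa0001.f.03 passed with 0.75 (SE 0.23, adjusted p = 0.0147) and tcbk0045.p.24 with 0.81 (SE 0.23, adjusted p = 0.0106), and both calls were lost without stage IIa replicate 1 (adjusted p = 0.0616 and 0.0515). Over all alternatives their adjusted p ran from 5.95e-04 to 0.0616 and from 1.16e-04 to 0.0515. A less sturdy call was that of 1rt151c22_c_b11, with 0.63 (SE 0.23, adjusted p = 0.0437, limma). It was lost in 7 of 10 fits that each left out an array and under 3 of 9 other settings. The same clone was higher in spermatocytes than in spermatogonia by 0.56 (SE 0.21, adjusted p = 0.0397), a call lost in 8 of 12 such fits.

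At stage VIII the median over the clones, 8.19, was near those of the immature testes. The median difference from stage V to stage VIII was -1.61, against -0.03 over all clones, and in 86 clones all stage V arrays lay above all stage VIII arrays, against 25.3% of all clones. The selection used stage V, so this is a description. In the test of stage VIII (n = 3) against stage IIa (n = 4), 8 of the 99 clones were higher and 7 lower, against backgrounds of 11% and 12.4%, and 84 did not pass (limma, adjusted p under 0.05). Both shares are under the background, and not passing a test of 3 against 4 arrays does not show an equal level. With array weights, which give less weight to arrays that vary more, the counts were 11 higher and 29 lower, against backgrounds of 16.3% and 19.5% under the same weights. The share of lower clones was then above its background. Leydig cell, blood and germ line genes differed between these stages as well, with 4 of 6 Leydig cell genes and 3 of 4 red cell genes higher at stage VIII, and 2 of 3 germ line genes lower. Of 5 Sertoli cell genes 1 was higher and 1 lower, and 0 of 3 matrix genes passed. The summed signal of the Leydig cell genes was 12.92 to 13.83 over the stage VIII arrays and 12.28 to 12.57 over the stage IIa arrays, and that of the red cell genes 14.59 to 14.68 and 12.85 to 14.01, and their part in these counts was not tested.

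The 3 clones without a symbol with the largest called drops from stage IIa to stage VIII were tcac0001.o.08, tcav0005.p.22 and 1rt63o12_c_h06. The stage VIII signals of tcav0005.p.22 were 8.14, 8.38 and 7.72, all under the lowest stage IIa array, and the clone fell by 0.96 between these groups (SE 0.24, adjusted p = 0.00359). Those of tcac0001.o.08 were 9.22, 8.62 and 7.83, which overlapped with the lowest stage IIa array, and it fell by 1.14 (SE 0.27, adjusted p = 0.00252), a call lost without stage VIII replicate 3 (difference -0.78, adjusted p = 0.0520). At stage V the same clone was at 11.65, 11.86, 11.84 and 12.08 and its mean dropped by 3.30 from stage V to stage VIII, the widest such step among the 99. The signals of 1rt63o12_c_h06 were 7.89, 8.31, 7.76 and 8.20 at stage IIa and 6.81, 6.91 and 7.63 at stage VIII, mostly under the background, and it fell by 0.93 (SE 0.26, adjusted p = 0.0100). That call was lost without stage VIII replicate 1 and without replicate 2 (adjusted p = 0.0666 and 0.0612), and when dim signals were set to the array median the difference was -0.04.

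Against the general fall after stage V, 5 of the 99 clones had a higher mean at stage VIII than at stage V, namely tcba0015.p.10, 1rt95j18_d_e09, tcba0019.l.15, 1rt119a15_a_a08 and tcbk0017.h.11, of which the third and the last are named after their values were seen. The signal of tcba0015.p.10 was 10.49, 9.40, 8.56 and 9.21 at stage IIa and 12.35, 11.69 and 11.01 at stage VIII, with no overlap and a rise of 2.27 (SE 0.58, adjusted p = 0.00414, limma). Its 3 stage IIIb arrays were 12.96, 9.42 and 9.79, so that its place among the 99 clones rested on stage IIIb replicate 1. It was kept in 12 of the 16 selections that each left out 1 array of stages I, IIb, IIIb and V. Among the others, tcba0019.l.15 was also kept in 12, 1rt95j18_d_e09 in 13, tcbk0017.h.11 in 14 and 1rt119a15_a_a08 in all 16.

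The other clones of this kind varied together on several arrays. For 1rt95j18_d_e09 the signals were 8.12, 7.92, 8.88 and 9.26 at stage IIa and 10.73, 11.05 and 10.75 at stage VIII, a rise of 2.30 (SE 0.73, adjusted p = 0.0196, limma) that was lost in 3 of 7 fits that each left out an array, and they were 8.56, 10.86 and 10.18 at stage IIIb. For 1rt119a15_a_a08 they were 8.24, 8.52, 8.57 and 9.0 at stage IIa and 10.16, 10.86 and 10.44 at stage VIII, a rise of 1.90 (SE 0.48, adjusted p = 0.00369, limma), and 9.34, 10.83 and 10.08 at stage IIIb. In both clones stage IIIb replicate 1 was the lowest and replicate 2 the highest of that stage, and the groups of the test did not overlap. In tcba0019.l.15, which had stage VIII signals of 10.85, 11.42 and 10.77, the order at stage IIIb was the same, and the difference from stage IIa, 1.54 (SE 0.62), had an adjusted p of 0.0659. Stage I arrays reached 10.04 for 1rt95j18_d_e09, 10.03 for 1rt119a15_a_a08 and 11.05 for tcba0019.l.15, above stage IIIb replicate 1 of each clone. Their spermatid signals were 7.73, 7.99 and 12.80 for 1rt95j18_d_e09, 9.23, 8.97 and 12.67 for 1rt119a15_a_a08, and 9.31, 8.57 and 12.83 for tcba0019.l.15. All 3 were called higher in spermatids than in spermatogonia. For tcba0019.l.15 the difference was 1.59 (SE 0.57, adjusted p = 0.0423, limma), and the alternatives were not examined for this clone. Without spermatid replicate 3 the differences of the first 2 went from 1.97 to 0.32 and from 1.40 to 0.21, with adjusted p of 0.803 and 0.785. Over all alternatives the adjusted p of these 2 differences ran from 0.00499 to 0.803 and from 9.2e-04 to 0.785. The fifth clone, tcbk0017.h.11, lay at 8.63, 8.93 and 9.45 at stage VIII and rose from stage IIa by 0.79 (SE 0.20, adjusted p = 0.00434), and it lacked the spermatid pattern, with 8.47, 8.96 and 8.15.

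Of the 4 clones with a gene symbol, LOC100136690, a protein-coding locus for which no role is given here, had the widest step from stage I in the set. Its signals were 8.28, 8.16, 7.74, 7.64 and 8.02 at stage I and 9.06, 8.90, 8.99 and 8.98 at stage IIb. They were 10.48, 10.34 and 10.39 at stage IIIb, 10.85, 11.17, 10.61 and 10.84 at stage V, and 9.12, 7.37 and 7.37 at stage VIII. The mean was 7.97 at stage I and 10.40 at stage IIIb, the arrays of stages I, IIb and IIIb did not overlap, and at stage VIII replicate 1 stood above the other arrays. Spermatogonia arrays ranged from 8.86 to 9.77 and spermatocyte arrays from 9.78 to 12.34, without overlap, a rise of 1.40 (SE 0.30, adjusted p = 6.1e-04, limma). The clone was also higher in spermatogonia than at stage IIa, by 1.04 (SE 0.34, adjusted p = 0.0245), and that call was lost in 4 of 10 fits that each left out an array.

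**Figure D5:**
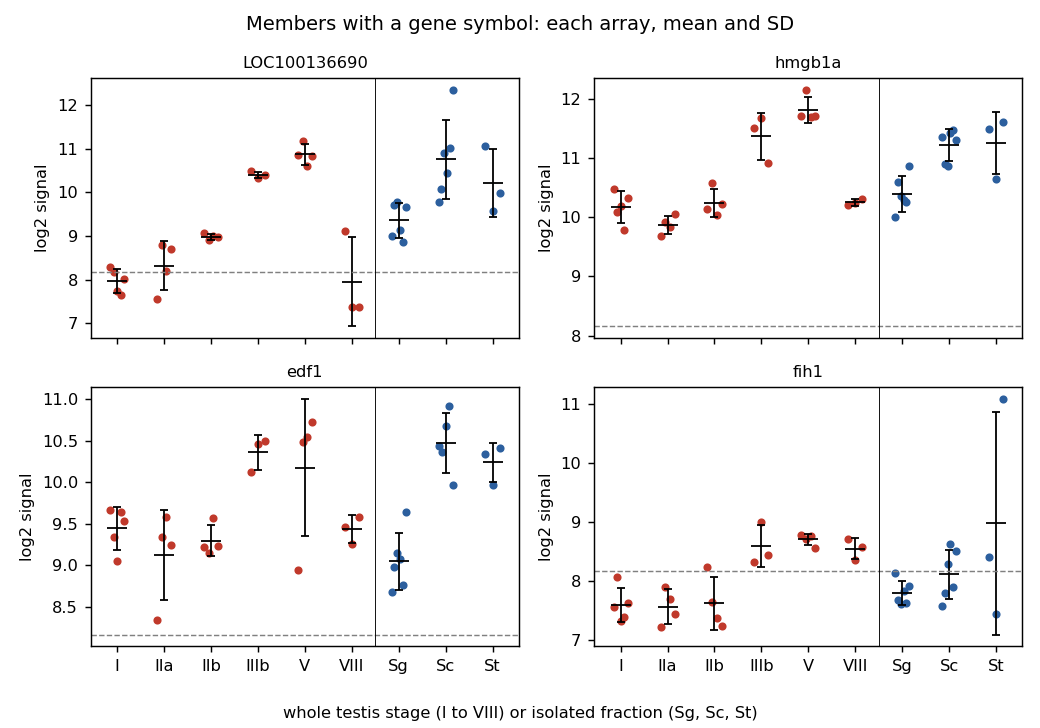
Log2 signal of the 4 clones with a gene symbol on every array (red for whole testis, blue for fractions), with the mean and SD of each group in black and the median of all clones as a dashed line. In all 4 panels the stage IIIb arrays lie above the stage IIb arrays, and stage V replicate 1 of edf1 (8.95) and spermatid replicate 3 of fih1 (11.08) stand apart from the other arrays of their groups.

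The gene hmgb1a encodes a high mobility group protein, a chromatin protein that binds and bends DNA. Its signals were 11.51, 11.69 and 10.92 at stage IIIb and 11.71, 12.15, 11.70 and 11.72 at stage V, against 9.68 to 10.59 on the 13 arrays from stages I to IIb. At stage VIII they were 10.21, 10.24 and 10.31, again within the range of the early stages, with no call against stage IIa (difference 0.38, SE 0.21, adjusted p = 0.204). Spermatogonia arrays lay between 10.01 and 10.87 and spermatocyte arrays between 10.88 and 11.48. The ranges touched without overlapping, and hmgb1a rose by 0.83 (SE 0.16, adjusted p = 1.76e-04, limma). In spermatids, at 11.49, 10.66 and 11.62, it was higher than in spermatogonia by 0.86 (SE 0.20, adjusted p = 0.00185), a call lost without spermatid replicate 3 (difference 0.68, adjusted p = 0.0562). Its difference of 0.52 between spermatogonia and stage IIa (SE 0.18, adjusted p = 0.0330) was lost in 5 of 10 fits that each left out an array.

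The gene edf1 encodes a coactivator of transcription, as known from mammals. It had the largest difference between spermatocytes and spermatogonia among the clones with a symbol, with ranges of 9.96 to 10.92 on 5 spermatocyte arrays (a value was missing) and 8.68 to 9.65 on 6 spermatogonia arrays. The groups did not overlap, and edf1 rose by 1.42 (SE 0.23, adjusted p = 1.59e-05, limma). Spermatids, at 10.34, 9.97 and 10.41, were also higher than spermatogonia, by 1.19 (SE 0.27, adjusted p = 0.00160). In whole testes its signals were 10.12, 10.46 and 10.50 at stage IIIb and 8.95, 10.48, 10.54 and 10.72 at stage V, so that replicate 1 alone was at the level of the early stages. At stage VIII they were 9.46, 9.26 and 9.59, with a difference of 0.31 from stage IIa (SE 0.29, adjusted p = 0.480), and between spermatogonia and stage IIa the difference was -0.08 (SE 0.25, adjusted p = 0.855).

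The symbol fih1 is used for an enzyme that hydroxylates and inhibits hypoxia-inducible factor. Its clone was dim, with 7.22 to 8.24 on the 13 arrays from stages I to IIb, all but a stage IIb array under the background, 8.33, 9.0 and 8.44 at stage IIIb and 8.78, 8.72, 8.76 and 8.56 at stage V. At stage VIII it was at 8.71, 8.36 and 8.58, close to stage V, and its difference from stage IIa was 0.98 (SE 0.41, adjusted p = 0.0747). Spermatocytes and spermatogonia differed by 0.31 (SE 0.31, adjusted p = 0.483) with overlapping ranges. The spermatid arrays were at 8.41, 7.44 and 11.08, and the difference from spermatogonia, 1.18 (SE 0.38, adjusted p = 0.0216), was 0.12 without replicate 3, with an adjusted p of 0.836. Over all alternatives that adjusted p ran from 6.84e-05 to 0.836.

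Lists of genes of germ cell processes were searched only among the 677 clones with a symbol in the array annotation, and were mostly empty there. The study's own annotation covers more clones and names genes of these processes, such as Pcna, Ttk and Dmc1, which were not searched here. Among the clones with a symbol, no listed gene was found for the cell cycle, for DNA replication and repair or for immune cells. Only sycp3 of 37 genes was found for meiosis, spata4 of 29 for spermiogenesis, cetn4 and ift122 of 73 for the axoneme, and hmgb1a of 25 for chromatin. Outside the 99 clones, sycp3 and spata4, and both genes of the axoneme, were higher in spermatocytes than in spermatogonia, and the 3 germ line genes measured (ddx4, ly75 and piwil2) were lower.

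The nearest other set was that of 93 clones that met the same limits up to stage IIIb and were a further 0.5 or more higher at stage V. In these, 86 of 93 were higher in spermatocytes than in spermatogonia and 0 lower, with a median difference of 1.53, against 46 and 4 of the 99 and a median of 0.45. In spermatogonia against stage IIa the counts were 13 higher and 0 lower of the 93, with a median of 0.29, against 60 and 0 of the 99 and a median of 0.66. Over all clones 12% were higher and 14.9% lower in the first comparison, and 12% and 10.3% in the second. The 13 of the 93 clones (14%) were thus near that background. The 93 clones had a median of 8.15 in spermatogonia, which is at the background, and the 99 clones one of 8.81. Both comparisons share the spermatogonia arrays, and both sets were chosen from the same stage IIIb and V arrays, so the values are placed side by side without a test of their difference. At stage VIII the array medians of the 93 clones were 9.10, 7.62 and 7.65, with replicate 1 apart by more than in the 99 clones. A single clone met the limits up to stage IIIb and was 0.5 or more lower at stage V.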

How the data were processed

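Expression was measured with 33P-labelled cDNA on nylon arrays of rainbow trout cDNA clones, 1 array per sample. The authors corrected each spot for the amount of cDNA it held, by a vector oligonucleotide hybridisation, and deposited log2 values that had been quantile normalized. All 9216 entries of the value table were read, of which 192 held no values, and the log2 values of the remaining 9024 clones were used as deposited. The authors' filter on dim vector signals was not applied here. Of these clones 677 carried a symbol in the array annotation and 190 lacked a value on an array.

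The 99 clones were found from group means. A limma 3.58.1 fit (R 4.3.3) gave 1 mean for each of 9 groups over 38 arrays, with moderated variances (prior df 7.3, residual df 29) and Benjamini-Hochberg adjustment over all clones. Calls were made at an adjusted p under 0.05, or at most 0.005 in an F-test of 5 groups with 4 contrasts. The selection and the gene lists were chosen with earlier results of these data known. Named clones were those with a symbol, the 3 brightest others at stage IIIb, the 3 with the largest called differences each way between spermatocytes and spermatogonia and between stages VIII and IIa, and those nearest to each limit. Alternatives were other normalizations, filters, fits, limits of the selection and leaving out each array. The other fits included that of only the 22 arrays of the groups that the selection did not use. The number of arrays limits the precision. The script was first tested on simulated data.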

Additional observations from a re-analysis of the deposited data

Results flagged for a closer look

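Within groups of 4 to 6 arrays, 114 sets of values were checked, for the named clones and for the median over the 99 clones. Clones named only for a limit or after their values were seen were not checked. In 6 sets the gap between the highest or lowest array and the nearest took up an unusually large part of the range. Chance alone gives about 1 in 20. The first 2 lay at stage I, where replicate 3 of tcba0015.p.10 was high at 10.22 (nearest array 9.05) and replicate 1 of tcay0013.g.06 low at 8.15 (nearest 9.58). At stage IIb replicate 1 of 1rt95j18_d_e09 was high at 9.36 (nearest 7.96). The other 3 lay at stage V, where replicate 2 of hmgb1a was high at 12.15 (nearest 11.72) and replicate 1 was low for edf1, at 8.95 (nearest 10.48), and for tcad0008.o.20, at 7.73 (nearest 8.97).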

How the results depend on the processing

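The selection depended both on its limits and on single arrays. A rise of 1.0 was met by 48 clones and a rise of 0.6 by 230. Leaving out 1 array of stages I, IIb, IIIb or V gave 86 to 127 clones, and such a selection shared as few as 73 with the 99. Of the 99 clones, 47 were kept in all 16 such selections. The count between spermatocytes and spermatogonia ran from 46 to 53 without an array and from 43 to 61 otherwise, and the F-test count from 83 to 93 and from 70 to 98. The count between spermatids and spermatogonia ran from 17 to 51 without an array, and that between spermatids and spermatocytes from 0 to 4, with a median from -0.28 to 0.0781, the only value with the other sign, found without spermatid replicate 2. The count between spermatogonia and stage IIa ran from 38 to 59, its median was 0.45 when dim signals were set to the array median, and the count between stages VIII and IIa was 40 with array weights. The share of all clones called also moved with the setting. Between spermatids and spermatogonia it was 21.3% with all arrays, and ran from 7.52% to 31.5% without a spermatid array. Between stages VIII and IIa it was 16.3% higher and 19.5% lower with array weights, against 11% and 12.4% without. The shares under most other settings are not given, so the counts in this section stand without that background. The causes were not tested. Of the 33 calls of named clones, 25 of 290 values under other settings and 55 of 321 without an array fell short of the threshold, and 0 reversed. Clones named only for a limit or after their values were seen, among them tcbk0006.a.12 and tcbk0017.h.11, are not in these counts. Replicate numbers did not pair the samples in general (1 of 6, 0 of 3, 0 of 3, 2 of 4 and 1 of 3 same-numbered pairs correlated over 0.1). Between spermatogonia and stage IIa, however, the same-numbered array was the best match in 2 of 4 pairs, with a highest correlation of 0.56. With the replicate number as a block the counts in the 5 comparisons were 50, 40, 0, 48 and 13, and 82 in the F-test. The 48, for spermatogonia against stage IIa, compares with 60 in the main fit. Stage VIII, stage IIIb and spermatids had 3 arrays each, which limits what can be called there.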
